A study of Mus musculus with 6 samples.

Results

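The 8 genes described here encode the cytokines GM-CSF (Csf2), M-CSF (Csf1), TNF (Tnf), lymphotoxin alpha (Lta), lymphotoxin beta (Ltb), IL-3 (Il3), RANKL (Tnfsf11) and LIGHT (Tnfsf14). They were found by their symbols in the annotation of a mouse array, which gave 13 probe sets, each naming a single gene, and they are 8 of the 18193 genes measured. All 8 were measured. They were chosen by their differences between the same 2 groups of cells in these data, known from earlier results, so those differences are given as a description and no test supports them.

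The study set 3 arrays of CD8aa Tregs (replicates 1, 2 and 4, titled 2D11) against 3 arrays of OT-1 T cells (replicates 1, 2 and 3, titled OvacD8). The CD8aa Tregs are regulatory T cells with the CD8 alpha homodimer and an alpha beta T cell receptor, which the series title calls Qa-1 restricted (Qa-1 is a non-classical MHC molecule). OT-1 is a T cell receptor transgene that recognises ovalbumin, and the labels give these cells CD8aa and an alpha beta receptor too. Both kinds were cultured with IL-2, antigen-presenting cells and the antigen of their own receptor, so the antigen differs between the groups. The labels call the source a T cell clone and give no strain, age, sex or day of harvest. Each group may thus be repeats of 1 clone. Nothing says that the replicates are separate cultures, so errors and p-values cover the scatter among the arrays alone, which may be technical.

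Values are on the log2 scale and were deposited relative to the median of each probe set over the 6 arrays, so 0 is the middle of the 6 arrays and not a level. Whether a transcript was bright or at background cannot be read from them. Fewer cells that make a cytokine and less RNA per cell cannot be told apart either. Where the groups do not overlap, the centring also makes the lowest CD8aa Treg value and the highest OT-1 value mirror images. T cell identity could not be checked by level for the same reason. Of 11 measured T cell markers, Cd6 was higher in CD8aa Tregs (1.85 ± 0.08, SE; limma adjusted p = 0.000756), and Cd8b1, the CD8 beta chain, and Cd247, the CD3 zeta chain, were lower (-2.36 ± 0.11, adjusted p = 0.00093, and -0.90 ± 0.11, adjusted p = 0.0151). Every OT-1 array thus read higher for Cd8b1 than any CD8aa Treg array, while the labels give CD8aa to both groups. Cd8a, named after its values were seen, differed by -0.26 ± 0.11 (SE) and did not pass (limma adjusted p = 0.303). Its 5 probe sets gave differences from -2.40 to 0.85. At an adjusted p under 0.05, 3.3% of all genes were higher and 3.37% lower (limma). Cd247 averages 4 probe sets with differences from -1.27 to 0.01. It passed in 2 of the 6 fits with an array left out (highest adjusted p = 0.0666, without OT-1 replicate 3).

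GM-CSF and M-CSF are secreted growth factors of myeloid cells. TNF and the lymphotoxins are trimers of the TNF superfamily that start NF-kB signalling or cell death in target cells. Lymphotoxin alpha is secreted as a homotrimer or anchored to the membrane with lymphotoxin beta. RANKL is best known as the factor that drives osteoclasts and supports dendritic cells, and LIGHT costimulates T cells. Activated T cells make all of these, and IL-3 besides, in response to their receptor, and many of the transcripts are short-lived.

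Csf2 and Il3 are neighbours on chromosome 11, and Tnf lies between both lymphotoxin genes on chromosome 17. The 250 bases before the annotated start are shown for Csf2, which had the largest difference, for its flat neighbour Il3, and for Tnf. They are from RefSeq on build GRCm38.p6, read 5′ to 3′ on the gene's strand, at chr11:54249900-54250149 (minus strand), chr11:54267280-54267529 (minus strand) and chr17:35202008-35202257 (minus strand). Capitals mark matches on either strand to GGAAA (the core of NFAT sites), TGANTCA (AP-1), a loose kappaB form (GGG, any 5 bases, CC) or TATAAA (the TATA box).
Csf2: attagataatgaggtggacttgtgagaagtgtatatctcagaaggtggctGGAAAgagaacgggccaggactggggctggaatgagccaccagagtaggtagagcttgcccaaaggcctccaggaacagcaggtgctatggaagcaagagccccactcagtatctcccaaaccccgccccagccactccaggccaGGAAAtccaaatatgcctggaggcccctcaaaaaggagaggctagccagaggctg
Il3: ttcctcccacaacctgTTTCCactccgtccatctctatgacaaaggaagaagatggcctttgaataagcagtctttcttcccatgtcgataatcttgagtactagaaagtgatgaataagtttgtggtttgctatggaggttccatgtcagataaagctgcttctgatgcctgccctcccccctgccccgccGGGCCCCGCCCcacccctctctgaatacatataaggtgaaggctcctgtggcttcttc
Tnf: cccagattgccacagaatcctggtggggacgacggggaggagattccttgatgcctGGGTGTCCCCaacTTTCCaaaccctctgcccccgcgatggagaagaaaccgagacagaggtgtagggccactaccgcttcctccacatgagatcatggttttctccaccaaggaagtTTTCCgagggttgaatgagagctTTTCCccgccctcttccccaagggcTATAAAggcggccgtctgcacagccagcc

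The Csf2 window held 2 matches to GGAAA and none of the other 3 motifs. The Il3 window held 1 match to GGAAA and 2 overlapping matches to the kappaB form. The Tnf window held 3 matches to GGAAA, 1 to the kappaB form and 1 to TATAAA. All 8 cytokine promoters held at least 1 match to GGAAA, as did 55.6% of the 32851 promoter windows of this length in the table. For the kappaB form the share was 45.8%, for TATAAA 12.4% and for TGANTCA 6.75%. Only Tnfsf14 among the 8 had a TGANTCA match. GGAAA can lie within the kappaB form, and did at Csf1 and Ltb. A match is only a run of letters. Each of these genes has 1 window, placed by its annotated start. Sites near another start or in distal enhancers are therefore not seen, and no match in a window does not mean no site.

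Of the 8 cytokine genes, 7 were higher on every CD8aa Treg array than on any OT-1 array. Csf2 had the largest difference and Il3 was flat. In the fit across all genes (limma, Benjamini-Hochberg), 6 of the 8 were past the threshold as higher, where 3.3% of all genes were higher. None of the 8 was past it as lower (3.37% of all genes), and at an unadjusted p under 0.05 the counts were 7 higher and 0 lower (10.8% and 9.09% of all genes). Groups without overlap were seen in 12.6% of all genes on the higher side and 10.7% on the lower. The median difference of the 8 was 1.36, beside 0.01 over all genes. Since the choice of the genes used this contrast, nothing is read from these shares. The number past the threshold was 7 without OT-1 replicate 1 (all but Il3; of all genes, 7.8% were higher there, 9.4% lower and 17.2% either). It was 1, 3 and 2 without CD8aa Treg replicates 1, 2 and 4, where 1.34%, 1.59% and 2.06% of all genes were higher. It was 3 and 4 without OT-1 replicates 2 and 3, where 1.37% and 1.36% were. Csf2 was past it in all 6 of these fits, Tnfsf14 in 5, Lta and Tnfsf11 in 3, and Csf1, Tnf and Ltb only without OT-1 replicate 1. These counts are for gene means. In the same fits of probe sets, Tnfsf14 1450298_at was past it in 1 and 1421588_at in 0. For Tnfsf11, 1419083_at was past it in 1 and 1451944_a_at in 2.

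Of the 13 cytokine probe sets, 11 were higher without overlap (11.7% of all probe sets; 8.54% lower) and 5 were past the threshold as higher in the fit of all 45037 (2%), those of Csf2 and Lta, both of Tnfsf11 and 1 of Tnfsf14. None was lower, where 2.05% of all probe sets were and 4.06% passed either way. Without OT-1 replicate 1, 10 were higher and 0 lower, where 4.8% and 5.8% of all probe sets were and 10.6% passed either way.

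**Figure D1:**
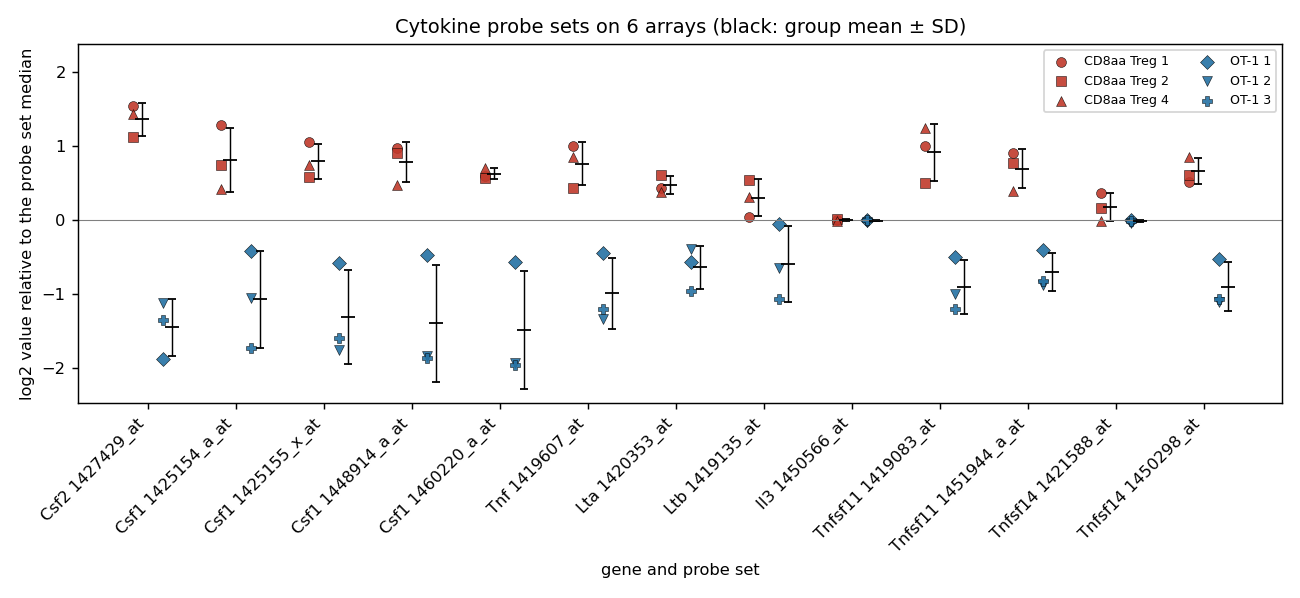
Value of each of the 13 cytokine probe sets (x axis) on each array, as log2 relative to the median of the probe set (y axis). Red symbols are CD8aa Tregs, blue symbols are OT-1 T cells, and black marks give the group mean ± SD (n = 3). In 11 probe sets the groups do not overlap, while Il3 and Tnfsf14 1421588_at lie near 0.

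OT-1 replicate 1 stood apart from the other OT-1 arrays before any cytokine is considered. Over the 29526 probe sets with a range of 0.1 or more, as a description, it correlated with OT-1 replicates 2 and 3 at r = 0.298 and 0.353, while those arrays correlated at 0.855. Its poly-A spike-in controls, bacterial transcripts added to follow labelling, averaged 0.49, beside -0.11 to 0.82 on the CD8aa Treg arrays and -1.58 and -2.39 on OT-1 replicates 2 and 3. The cytokine values are therefore given for each array, and against OT-1 replicate 1 and OT-1 replicates 2 and 3 separately. A fit with this spike-in grouping (OT-1 replicates 2 and 3 on the low side) as a term sets the CD8aa Tregs against OT-1 replicate 1 alone. Leaving out OT-1 replicate 1 instead sets them against the low side alone. In every fit without that array, the kind of cell and the spike-in side thus cannot be told apart. In the spike-in controls OT-1 replicate 1 lay within the CD8aa Treg range, and OT-1 replicates 2 and 3 lay below it. What set the OT-1 arrays apart from one another, and which of them are the odd ones, was not tested.

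Among the growth factors, Csf2 (probe set 1427429_at) read 1.55, 1.12 and 1.44 on CD8aa Treg replicates 1, 2 and 4, against -1.87, -1.12 and -1.35 on OT-1 replicates 1, 2 and 3. Every CD8aa Treg array lay more than 2 log2 units above every OT-1 array, and OT-1 replicate 1 was the lowest of the 6. The difference was 2.81 ± 0.23 (SE, n = 3 per group), a 7.04-fold one, and the 26th of 18193 genes by size on the higher side. Csf2 was the only one of the 8 genes whose value on OT-1 replicate 1 was the lowest of all arrays. The CD8aa Treg mean lay 3.24 above OT-1 replicate 1 and 2.60 above the mean of OT-1 replicates 2 and 3.

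Csf1 is read by 4 probe sets, which gave differences of 1.88 to 2.18, and the groups did not overlap in any of the 4. Their mean read 0.98, 0.70 and 0.59 on the CD8aa Treg arrays, against -0.51, -1.64 and -1.78 on the OT-1 arrays, in the order of the replicate numbers. The CD8aa Treg arrays lay close together, whereas OT-1 replicate 1 lay between them and the other OT-1 arrays. The difference was 2.07 ± 0.38 (SE), 4.19-fold. Set against OT-1 replicate 1 alone it was 1.27, and against OT-1 replicates 2 and 3 it was 2.47. No single Csf1 probe set was past the threshold when all 45037 probe sets were fitted, and 4 of 4 were without OT-1 replicate 1.

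Il3, whose product shares a receptor subunit with GM-CSF, showed no pattern. Its probe set 1450566_at read -0.002, 0.01 and -0.01 on the CD8aa Treg arrays, against 0.003, -0.02 and 0.002 on the OT-1 arrays. The groups overlapped and the 6 arrays spanned only 0.03, so the difference of 0.004 ± 0.02 (SE) is within the spread. Of all probe sets, 34.4% spanned under 0.1. Such a probe set may lie at background in both groups, and equal expression is not shown.

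In the TNF locus all 3 cytokine genes stood higher in CD8aa Tregs. Tnf (1419607_at) read 1.00, 0.44 and 0.86 on CD8aa Treg replicates 1, 2 and 4, against -0.44, -1.33 and -1.19 on OT-1 replicates 1, 2 and 3. The groups did not overlap, with CD8aa Treg replicate 2 the lowest of its group and OT-1 replicate 1 the highest of the other. The difference was 1.75 ± 0.29 (SE), 3.37-fold, at 1.20 against OT-1 replicate 1 and 2.03 against OT-1 replicates 2 and 3.

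Lta (1420353_at), which encodes the secreted lymphotoxin, read 0.43, 0.61 and 0.38 in CD8aa Tregs, against -0.57, -0.38 and -0.95 in OT-1 cells. Here OT-1 replicate 1 lay between its fellow arrays, so the difference of 1.11 ± 0.16 (SE) changed little with the array it was set against (1.04 and 1.14). Ltb (1419135_at), the membrane partner, read 0.05, 0.55 and 0.32 in CD8aa Tregs, against -0.05, -0.65 and -1.07 in OT-1 cells. CD8aa Treg replicate 1 and OT-1 replicate 1 nearly met, and the difference of 0.89 ± 0.30 (SE) was not past the threshold. It was 0.35 against OT-1 replicate 1 and 1.16 against OT-1 replicates 2 and 3, so the value of Ltb depends on which OT-1 arrays are used.

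The ligands RANKL and LIGHT have 2 probe sets each. For Tnfsf11, probe set 1419083_at read 1.01, 0.50 and 1.25 in CD8aa Tregs, against -0.50, -0.997 and -1.20 in OT-1 cells. Probe set 1451944_a_at read 0.91, 0.78 and 0.40 in CD8aa Tregs, against -0.40, -0.87 and -0.83 in OT-1 cells. The groups did not overlap in either, and the probe sets ordered the CD8aa Treg arrays differently. Their mean differed by 1.61 ± 0.18 (SE), 3.04-fold.

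For Tnfsf14 the probe sets disagreed. Probe set 1450298_at read 0.52, 0.61 and 0.86 in CD8aa Tregs, against -0.52, -1.10 and -1.06 in OT-1 cells, a difference of 1.56 ± 0.19 (SE). Probe set 1421588_at read 0.37, 0.16 and -0.003 in CD8aa Tregs, against 0.003, -0.03 and -0.01 in OT-1 cells, a difference of 0.19 ± 0.10 with groups that overlapped. Both carry the same transcript accession in the annotation, and the gene mean of 0.87 ± 0.09 averages a probe set that moved with one that hardly did.

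By the size of the difference the order was Csf2, Csf1, Tnf, Tnfsf11, Lta, Ltb, Tnfsf14 and Il3. Csf1 and Tnf, Tnf and Tnfsf11, Lta and Ltb, and Ltb and Tnfsf14 are neighbours in that order whose differences lay closer together than the larger of their SEs. In the 7 genes whose groups did not overlap, the SD between arrays was smaller in CD8aa Tregs than in OT-1 cells. For Csf1 it was 0.20 in CD8aa Tregs and 0.70 in OT-1 cells, and for Tnf 0.29 in CD8aa Tregs and 0.48 in OT-1 cells. These SDs are of gene means, and some single probe sets went the other way. For Tnfsf11 the SD was 0.385 in CD8aa Tregs and 0.362 in OT-1 cells (1419083_at), and 0.264 and 0.261 (1451944_a_at). For Tnfsf14 1421588_at it was 0.189 in CD8aa Tregs and 0.018 in OT-1 cells. Among the 546 genes that were higher in CD8aa Tregs without overlap and spanned at least 1, 65.9% had the smaller SD in CD8aa Tregs. OT-1 replicate 1 was the highest OT-1 array in 5 of these 7 cytokine genes, all but Csf2 and Lta, and in 55.1% of those 546 genes.

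**Figure D2:**
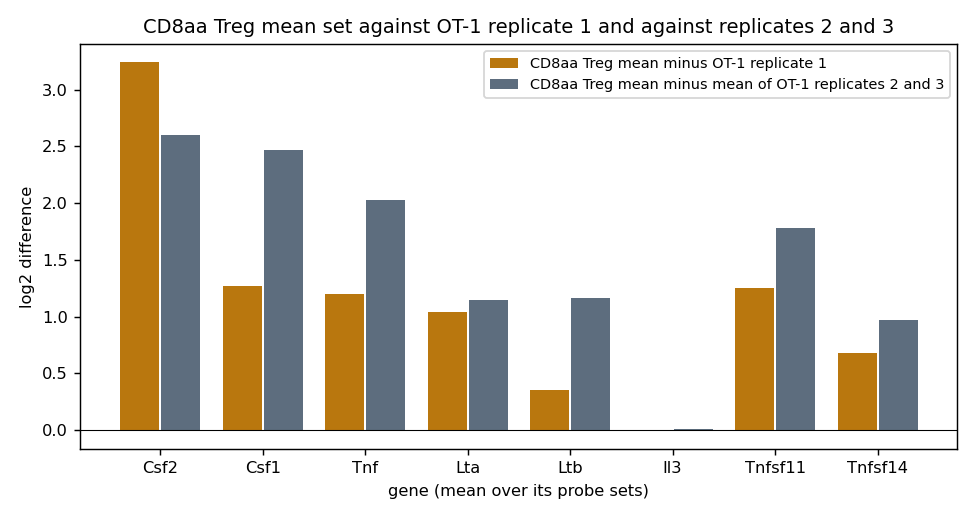
Log2 difference (y axis) between the CD8aa Treg mean and OT-1 replicate 1 (brown bars), and between the CD8aa Treg mean and the mean of OT-1 replicates 2 and 3 (grey bars), for each cytokine gene (x axis). Csf2 is the one gene with the clearly taller brown bar (3.24 beside 2.60), and Ltb has the smallest brown bar of the 7 genes whose groups did not overlap (0.35 beside 1.16).

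Of the 10 nearest measured genes outside the set, none passed as higher and 1 as lower (limma). Over all genes the shares were 3.3% and 3.37%. Beside the Csf2 and Il3 pair, the nearest measured genes were 4933405E24Rik and Acsl6, which differed by 0.01 ± 0.02 and -0.03 ± 0.03 (SE) and spanned under 0.1. At the TNF locus, Nfkbil1 beside Lta differed by 0.17 ± 0.27 (SE; limma adjusted p = 0.873). Lst1, a leukocyte gene beside Ltb, read -0.08, 0.002 and -0.46 in CD8aa Tregs, against -0.002, 1.95 and 2.22 in OT-1 cells. Lst1 was thus high on OT-1 replicates 2 and 3 alone, and its difference of -1.57 ± 0.64 (SE) did not pass (limma adjusted p = 0.276). Of the 6 fits with an array left out, it passed only in that without OT-1 replicate 1, as lower.

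The neighbours of Csf1, Ahcyl1 and Eps8l3, differed by -0.03 and 0.03, and those of Tnfsf11, Fam216b and Akap11, by 0.07 and 0.13. None of these 4 passed (adjusted p = 0.692 to 0.877). Beside Tnfsf14, Cd70 differed by -0.15 ± 0.12 (SE), and Trip10, an adaptor of the actin cytoskeleton, stood lower, at -1.05 ± 0.20 (SE; limma adjusted p = 0.0485). Trip10 passed in 2 of the 6 fits with an array left out (highest adjusted p = 0.1725, without OT-1 replicate 2).

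**Figure D3:**
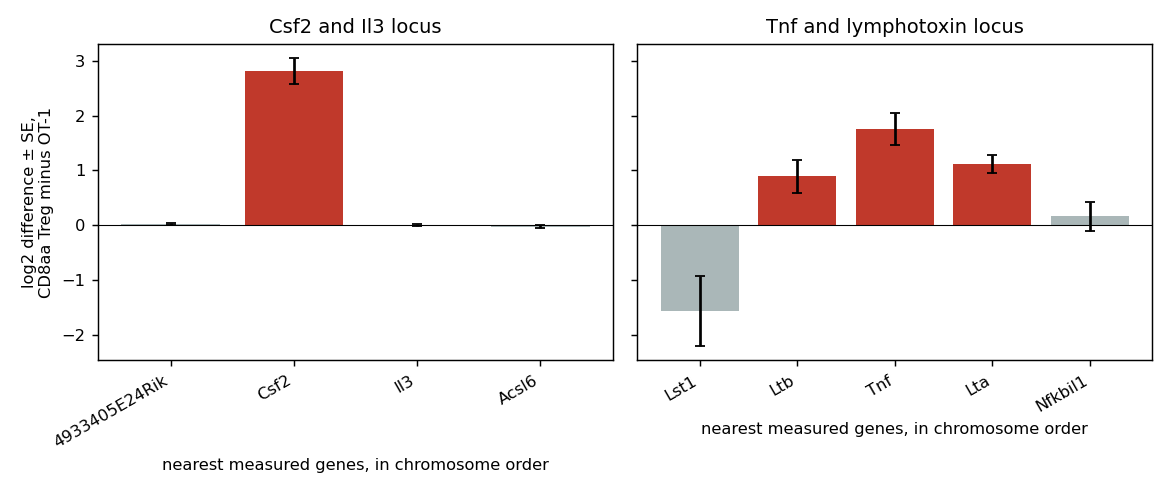
Log2 difference ± SE (y axis; CD8aa Treg minus OT-1, n = 3 per group) of the cytokine genes (red) and their nearest measured neighbours (grey), in chromosome order (x axis). Csf2 stands at 2.81 beside Il3 near 0, and Ltb, Tnf and Lta are all above 0 between Lst1 and Nfkbil1.

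Most receptors through which these cytokines act did not pass the test. Of 11 measured receptor genes, 2 were higher in CD8aa Tregs and 0 lower (3 and 1 at an unadjusted p under 0.05, limma), where 6.67% of all genes passed in either direction. At that unadjusted p, 10.8% of all genes were higher and 9.09% lower. The receptor for LIGHT, Tnfrsf14 (HVEM), read 1.82, 1.15 and 1.51 in CD8aa Tregs, against -1.15, -1.15 and -1.57 in OT-1 cells. The groups lay far apart, and the difference was 2.79 ± 0.21 (SE; adjusted p = 0.00406), 6.90-fold. Tnfrsf11b (osteoprotegerin), the decoy receptor of RANKL, read 0.65, 0.57 and 0.69 in CD8aa Tregs, against -0.67, -0.72 and -0.58 in OT-1 cells. Its difference was 1.30 ± 0.05 (SE; adjusted p = 0.000643), averaged from a probe set at 0.21 and another at 2.39. Tnfrsf14 and Tnfrsf11b passed in all 6 fits with 1 array left out and in that with the spike-in term.

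RANK itself (Tnfrsf11a) differed by 0.12 ± 0.05 (SE), and the lymphotoxin beta receptor Ltbr by 0.01 ± 0.04 (SE). The TNF receptors Tnfrsf1a and Tnfrsf1b differed by -0.25 ± 0.10 and -0.32 ± 0.21 (SE). None of these 4 passed (adjusted p = 0.246 to 0.934). Among the receptor chains for GM-CSF and IL-3, Csf2ra differed by -0.16 ± 0.07 (SE), the common beta chain Csf2rb by -0.14 ± 0.16, and Csf2rb2, the IL-3 beta chain of the mouse, by 0.01 ± 0.02. Il3ra read 0.37, 0.85 and 0.29 in CD8aa Tregs, against -0.91, -0.29 and -0.77 in OT-1 cells, without overlap. Its difference of 1.16 ± 0.23 (SE) narrowly failed the test (adjusted p = 0.0573).

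The M-CSF receptor Csf1r, a defining gene of macrophages, read -0.08, -0.01 and 0.0001 in CD8aa Tregs, against 1.17, -0.01 and 0.003 in OT-1 cells. It was thus high on OT-1 replicate 1 alone and flat on the other 5 arrays. The group difference was -0.41 ± 0.35 (SE, limma adjusted p = 0.693). In the fit with the spike-in term, against OT-1 replicate 1 alone, it was -1.20.

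**Figure D4:**
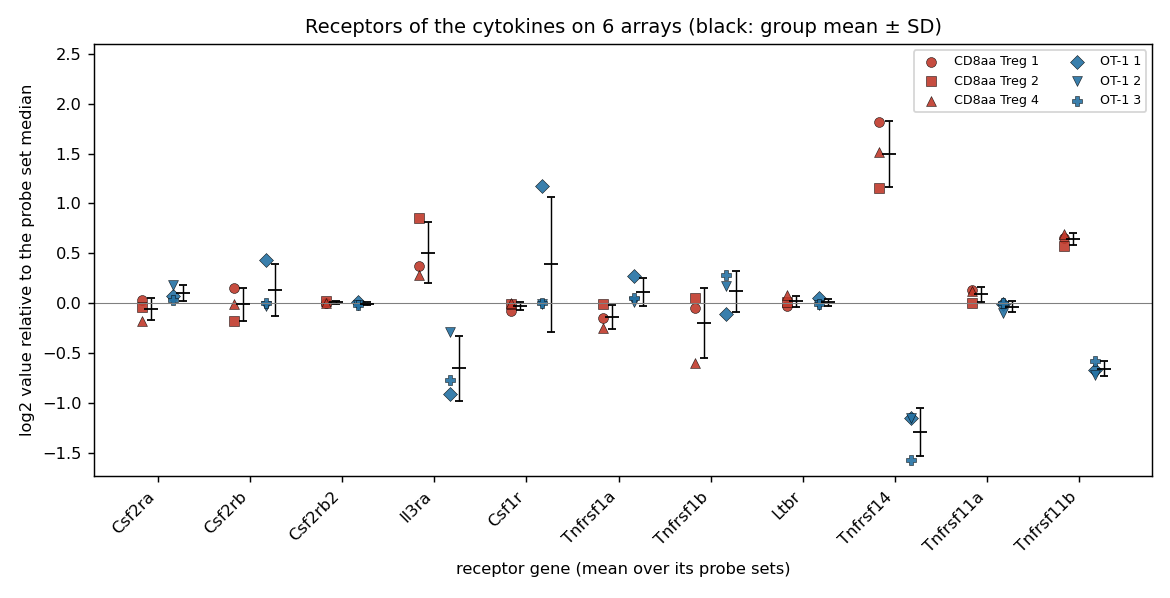
Value of each of the 11 receptor genes (x axis; mean over probe sets) on each array, as log2 relative to the probe set median (y axis), with the group mean ± SD (n = 3) in black. Tnfrsf14 and Tnfrsf11b (red CD8aa Treg symbols above blue OT-1 symbols) passed the test, and Csf1r is raised on OT-1 replicate 1 only.

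Of 22 measured genes that carry or restrain signals from TNF receptors to NF-kB, 2 were higher in CD8aa Tregs and 0 lower (4 and 2 at an unadjusted p under 0.05; median difference 0.06). Among all genes, 3.3% were higher and 3.37% lower (10.8% and 9.09% at the unadjusted p, limma). Tnip1, a restraint on NF-kB that works with the A20 protein, was higher by 0.87 ± 0.15 (SE; limma adjusted p = 0.0416). It passed in only 1 of the 6 fits with an array left out, that without OT-1 replicate 1 (highest adjusted p = 0.149, with CD8aa Treg replicate 2 left out). Birc2 (cIAP1), a ubiquitin ligase of the TNF receptor complex, was higher by 0.81 ± 0.08 (adjusted p = 0.0086) and passed in all 6. Without OT-1 replicate 1, 5 genes were higher and 1 lower, where 7.8% and 9.4% of all genes were. Nfkbia, the NF-kB inhibitor, then stood higher by 0.69 (adjusted p = 0.0202). Over all arrays it differed by 0.33 ± 0.33 (SE; adjusted p = 0.738), with 0.45 on OT-1 replicate 1 and -0.71 and -0.54 on OT-1 replicates 2 and 3.

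Factors that shed TNF or destroy these short-lived transcripts were considered next. Of 14 genes, 2 were higher and 0 lower (5 and 0 at an unadjusted p under 0.05; median difference 0.26). The shares over all genes were 3.3% higher and 3.37% lower (10.8% and 9.09% at the unadjusted p, limma). Rc3h2 (Roquin-2), which degrades cytokine transcripts, was higher by 0.44 ± 0.04 (SE; limma adjusted p = 0.0053; 7 probe sets from -0.03 to 1.41). Zfp36l2, of the tristetraprolin family, was higher by 0.19 ± 0.03 (adjusted p = 0.0384; 3 probe sets from 0.002 to 0.50). But of the 6 fits with an array left out it passed only in that without OT-1 replicate 1 (0.0469; highest 0.133, without OT-1 replicate 3). It did not pass in the fit with the spike-in term (0.142). Adam17, the TNF sheddase, differed by 0.45 ± 0.29 (adjusted p = 0.549). Rhbdf1 had the largest difference of the 14 genes, 1.33 ± 0.31 (SE), without overlap, but did not pass (limma adjusted p = 0.0827). Zfp36 (tristetraprolin), which binds Tnf and Csf2 transcripts, read 0.01, -0.10 and -0.01 in CD8aa Tregs, against -1.37, 0.41 and 0.48 in OT-1 cells. It was low on OT-1 replicate 1 alone. Its difference was 0.13 ± 0.54 over all arrays (limma adjusted p = 0.937) and turned to -0.47 without that array (adjusted p = 0.0068). Zfp36l1, of the same family, differed by 1.06 ± 0.43 over all arrays (adjusted p = 0.271). Leaving that array out gave 1.53 for Zfp36l1, opposite in sign to Zfp36 (adjusted p = 0.0049). Without that array 5 genes were higher and 1 lower, where 7.8% and 9.4% of all genes were.

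Transcription factors that act on cytokine genes went both ways. Of 23 measured, 3 were higher and 2 lower in CD8aa Tregs (4 and 7 at an unadjusted p under 0.05; median difference -0.16). Among all genes, 3.3% were higher and 3.37% lower (10.8% and 9.09% at the unadjusted p, limma). Rora, a nuclear receptor that helps type 17 cells and innate lymphoid cells form, had a difference of 2.34 ± 0.13 (SE; limma adjusted p = 0.0014; 9 probe sets from -0.004 to 5.12). Ets1, an activator of lymphocyte genes, was higher by 1.34 ± 0.14 (adjusted p = 0.0106; 4 probe sets from 0.32 to 2.68). Nfatc3, an NFAT family member, was higher by 0.88 ± 0.11 (adjusted p = 0.014; 2 probe sets, 0.49 and 1.27). Jun, an AP-1 subunit, was lower by -1.05 ± 0.13 (adjusted p = 0.0172; 2 probe sets, -1.27 and -0.84). Nfatc1 was lower by -0.19 ± 0.03 (adjusted p = 0.0201; 5 probe sets from -0.39 to -0.06). Rora passed in all 6 fits with an array left out, Ets1, Nfatc3 and Nfatc1 in 3, and Jun in 2. The highest adjusted p was 0.0591 for Ets1 and 0.0766 for Jun without OT-1 replicate 2, 0.0665 for Nfatc3 without CD8aa Treg replicate 2, and 0.0949 for Nfatc1 without CD8aa Treg replicate 1.

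Without OT-1 replicate 1, 3 of these factors were higher and 8 lower, where 7.8% and 9.4% of all genes were. Among the 8 lower factors was the immediate early gene Fos, which read 0.34, -0.85 and -0.34 in CD8aa Tregs, against -0.41, 5.82 and 5.77 in OT-1 cells. Egr1, another immediate early gene, read -0.002, -0.56 and 0.002 in CD8aa Tregs, against -1.81, 5.09 and 5.27 in OT-1 cells. Both were far higher on OT-1 replicates 2 and 3 than on any other array, so neither passed over all arrays (adjusted p = 0.346 and 0.584). Csf1, Tnf, Ltb, Tnfsf11 and Tnfsf14 had their lowest values on the same OT-1 replicates 2 and 3. Bhlhe40, a factor needed for GM-CSF in T helper cells of the mouse, read -1.01, -0.22 and -1.20 in CD8aa Tregs, against 0.22, 1.28 and 1.21 in OT-1 cells. Its group difference of -1.71 ± 0.41 (SE) was thus opposite in sign to that of Csf2, without passing (limma adjusted p = 0.0887). Without OT-1 replicate 1 the difference was -2.05 (adjusted p = 0.0246). Among the OT-1 arrays, though, Bhlhe40 and Csf2 were both lowest on replicate 1 and highest on replicate 2. Fos, Egr1, Bhlhe40, Zfp36, Zfp36l1, Rhbdf1, Nfkbia and Adam17 were singled out after their values were seen. So were Cd14, Lyz2, Cd68, Cpa3, Mcpt8, Kit and Il7r, named below.

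**Figure D5:**
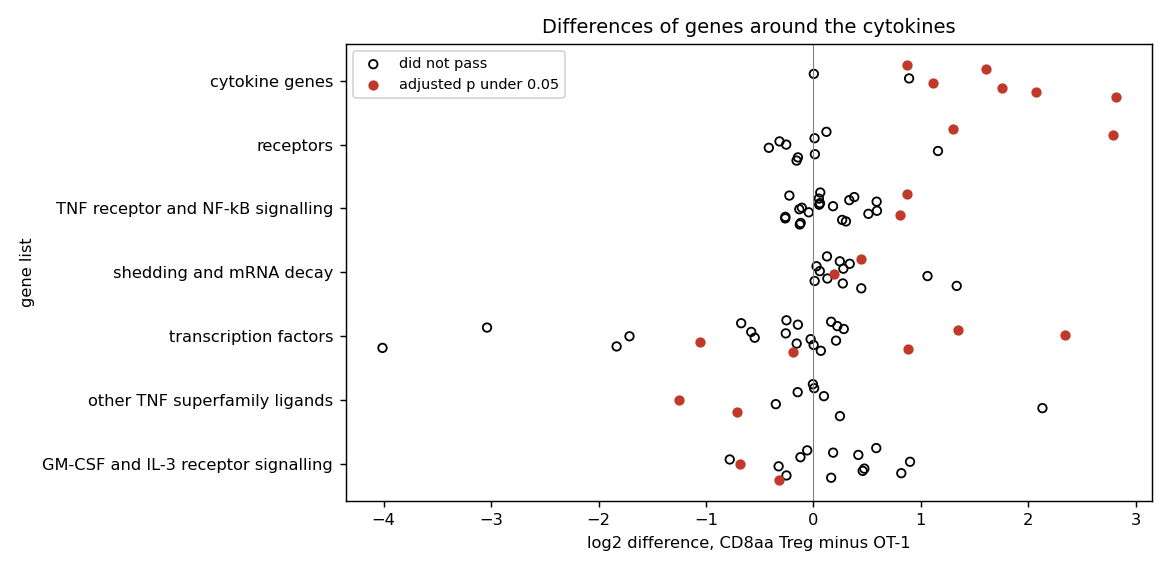
Log2 difference (x axis; CD8aa Treg minus OT-1) of each measured gene in 7 lists (y axis). Filled red points have an adjusted p under 0.05 over all genes and open points do not; the cytokine genes were chosen with this contrast known. The cytokine genes lie at or right of 0, while the other lists spread to both sides of 0 or, for shedding and decay, lie right of it with 2 of 14 filled.

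Other ligands of the TNF superfamily followed. Of 9 measured, 0 were higher and 2 were lower in CD8aa Tregs (2 and 2 at an unadjusted p under 0.05; median difference -0.005). The shares over all genes were 3.3% higher and 3.37% lower (10.8% and 9.09% at the unadjusted p, limma). Tnfsf10 (TRAIL), a death ligand, was lower by -1.25 ± 0.16 (SE; limma adjusted p = 0.0163; 3 probe sets from -2.08 to -0.59), and Tnfsf4 (OX40 ligand) by -0.71 ± 0.08 (adjusted p = 0.0118). Both passed in 3 of the 6 fits with an array left out, with the highest adjusted p, 0.0731 and 0.0644, without OT-1 replicate 2. Tnfsf8 (CD30 ligand), named after its values were seen, read 0.92, 0.32 and 0.38 in CD8aa Tregs, against -0.32, -1.57 and -2.90 in OT-1 cells. The OT-1 arrays were spread widely, and its difference of 2.13 ± 0.69 (SE) passed only without OT-1 replicate 1 (2.77, adjusted p = 0.0284; 0.176 over all arrays).

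Downstream of the GM-CSF and IL-3 receptors, signals pass through JAK2 and STAT5 to targets such as the PIM kinases. Of 15 genes, 0 were higher and 2 lower (2 and 4 at an unadjusted p under 0.05; median difference 0.17). Among all genes, 3.3% were higher and 3.37% lower (10.8% and 9.09% at the unadjusted p, limma). In CD8aa Tregs Pim1 was lower by -0.69 ± 0.10 (SE; limma adjusted p = 0.0255) and Jak2 by -0.32 ± 0.05 (adjusted p = 0.0255). Each passed in 2 of the 6 fits with an array left out. The highest adjusted p was 0.101 for Pim1 without CD8aa Treg replicate 2 and 0.1003 for Jak2 without OT-1 replicate 3. With OT-1 replicate 1 left out, 5 genes were higher and 2 lower, where 7.8% and 9.4% of all genes were.

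Antigen-presenting cells were present in both cultures, and their markers were looked at beside the cytokines. The 7 measured B cell markers differed by -0.01 to 0.03 and 0 passed (limma; 0 at an unadjusted p under 0.05), and 5 of the 7 spanned under 0.1. Among all genes, 6.67% passed in either direction. At the unadjusted p, 10.8% of all genes were higher and 9.09% lower. Of 12 myeloid and dendritic cell markers, 0 passed (2 at an unadjusted p under 0.05), and 4 spanned under 0.1. Those spanning 1 or more were Csf1r, Lyz2, Cd14 and Cd68. The macrophage genes Lyz2 and Cd68 did not move alike: Lyz2 was highest on OT-1 replicate 1 (2.70, beside -0.49 to 0.59 in CD8aa Tregs and -1.91 and -2.82 on OT-1 replicates 2 and 3). Cd68 was highest on OT-1 replicates 2 and 3 (3.34 and 3.44, beside -0.71 to -0.48 in CD8aa Tregs and 0.48 on OT-1 replicate 1). Cd14, the lipopolysaccharide co-receptor, read -0.20, -0.35 and -0.27 in CD8aa Tregs, against 0.20, 0.66 and 0.75 in OT-1 cells. Like Cd68 it was lower in CD8aa Tregs without overlap and highest on OT-1 replicates 2 and 3 (-0.81 ± 0.16, SE; limma adjusted p = 0.0528). With OT-1 replicate 1 left out, 1 myeloid marker was higher (Lyz2, 2.56, adjusted p = 0.036) and 2 lower (Cd68, -3.96, adjusted p = 0.000284, and Cd14, -0.98, adjusted p = 0.00202). The shares over all genes were then 7.8% higher and 9.4% lower. The fit with the spike-in term sets the CD8aa Tregs against OT-1 replicate 1 alone. In it Csf1r, Lyz2, Cd14 and Cd68 differed by -1.20, -2.50, -0.48 and -1.04.

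Of 8 mast cell and basophil markers, which mark cells that also make TNF and IL-3, 0 passed (2 at an unadjusted p under 0.05). Among all genes, 6.67% passed in either direction (10.8% higher and 9.09% lower at the unadjusted p, limma). Cpa3, a mast cell protease, read -0.07, -1.57 and -0.35 in CD8aa Tregs, against 0.07, 3.60 and 3.36 in OT-1 cells. It was high on the arrays where those 5 cytokine genes were lowest. Mcpt8, a basophil protease, read -0.21, 0.21 and -0.29 in CD8aa Tregs, against -0.87, 2.02 and 1.23 in OT-1 cells, and was high on the same 2 arrays. Kit, the stem cell factor receptor, lay the other way without overlap (0.46 ± 0.17, SE; limma adjusted p = 0.241). With OT-1 replicate 1 left out, Cpa3 (-4.14, adjusted p = 0.0129) and Mcpt8 (-1.72, adjusted p = 0.0316) were lower and 0 of the 8 higher. The shares over all genes were then 9.4% lower and 7.8% higher. Of 4 NK and innate lymphoid cell markers 0 passed (1 at an unadjusted p under 0.05), and Il7r was higher with that array left out (adjusted p = 0.00228). Of 8 stromal and endothelial markers 1 did: Pecam1, an adhesion molecule also found on leukocytes, was higher in CD8aa Tregs (1.82 ± 0.33, SE; adjusted p = 0.0446). Pecam1 passed in 1 of the 6 fits with an array left out (highest adjusted p = 0.148, without OT-1 replicate 3). Averaged per array, these 5 marker lists ranged from -0.09 to 0.22 in CD8aa Tregs and from -0.26 to 0.66 in OT-1 cells. Summed levels and markers at 0 cannot be given because levels were removed, and the part of other cells in the cytokine values was not tested.

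The cytokine profiles were also set against those of the 2024 genes that spanned at least 1, by the root mean square difference of mean-centred values over the 6 arrays. Since the group difference dominates all of these profiles, likeness here mostly means a difference of like size. The closest to Csf2 were Ppic (0.25), Trgv1 (0.26) and Bcl2l15 (0.26). The closest to Csf1 were Dcun1d4 (0.24), Stx1a (0.24) and Carns1 (0.25), and to Tnf Zhx2 (0.14), Tnfsf11 (0.16) and Phlpp1 (0.21). Tnfsf11 was thus the one other cytokine gene among the 3 nearest to any of them, and Pgr, Mtm1 and Rbl2 were nearest to Tnfsf11 itself (0.11, 0.12 and 0.15).

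Lta was nearest to Cep83os (0.04), Trp53i13 (0.11) and Hypk (0.12), Ltb to Cc2d1a (0.0563), Zmiz2 (0.0903) and Rrp1b (0.0949), and Tnfsf14 to Eri1 (0.06), 1700019D03Rik (0.06) and Zfp658 (0.07). Between cytokine genes, Tnf and Csf1 lay 0.27 apart, Lta and Tnfsf14 0.24, Ltb and Tnfsf14 0.27, and Lta and Ltb 0.29. Both lymphotoxin genes thus lay nearer to the gene mean of Tnfsf14 than to each other, though for Ltb only just (0.272 beside 0.286). That gene mean averages in the Tnfsf14 probe set that hardly moved. Csf2 lay 0.72 to 1.11 from the 6 others, since its difference was the largest and its lowest array was OT-1 replicate 1.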

How the data were processed

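Cultured mouse T cells were measured on 6 arrays of 45101 probe sets. RMA, of unstated version, made the values, per the submitters' processing notes. No label gives the log base. The deposited values were taken as log2 because 1 probe set ranged over 11.37, beyond the 11.09 that natural logs of a 16-bit scan could reach. They had been centred, with every probe set's median within 5.0e-07 of 0. The 64 array controls were left out. The platform annotation gave a single symbol for 34945 probe sets, and the mean over a gene's probe sets was its value. Genes (18193) and probe sets (45037) were each fitted with lmFit and eBayes of limma 3.58.1 (R 4.3.3), with two-sided p-values adjusted by Benjamini-Hochberg over all features and a threshold of 0.05. A positive difference means higher in CD8aa Tregs. With 3 arrays per group the number of arrays limits the precision. The fit was also run on simulated arrays with known changes.

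The cytokine genes, the gene lists and the tests were chosen with earlier results of these data known. Named are all cytokine genes and their receptors, up to 5 genes past the threshold in each other list, the nearest measured neighbours, the 3 most like profiles and the markers that passed. Of the listed genes, those without a single-symbol probe set are not analysed here. Neighbours and promoters came from RefSeq tables of GRCm38.p6, and no coordinates entered the expression values. Alternatives were leaving out each array, a replicate block, the spike-in grouping as a term, other scalings, other probe set choices, a filter on range, array weights and robust variances.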

Additional observations from a re-analysis of the deposited data

How the results depend on the processing

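The number of genes past the threshold was 1214 over all arrays, and 49.4% of these were higher in CD8aa Tregs. It ran from 523 to 3129 with 1 array left out, the highest without OT-1 replicate 1, and was 202 with the replicate block and 7391 with array weights, whose estimation did not converge. Quantile normalization left 1189 genes, 38.4% of them higher. For probe sets the number was 1827, from 811 to 4773 with 1 array left out, 229 with the replicate block, 2962 among probe sets spanning at least 0.1 and 17219 with array weights. Of the 8 cytokine genes, 6 were past the threshold, 1 to 7 with 1 array left out, 1 with the replicate block (Tnfsf11) and 4 to 7 under the other alternatives. Only replicate numbers 1 and 2 occur in both groups, and the deviations of same-numbered arrays correlated at -0.03 and 0.21, so the block rests on shared numbers alone. The cause of these changes was not tested.

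Over all alternatives the difference was 2.60 to 3.31 for Csf2, 1.27 to 2.68 for Csf1, 1.20 to 2.13 for Tnf, 0.95 to 1.36 for Lta, 0.35 to 1.16 for Ltb, 1.26 to 1.93 for Tnfsf11 and 0.68 to 1.56 for Tnfsf14. Il3 lay between -0.004 and 0.01. Of 104 such values, 93 stayed within the spread between replicates and 11 did not, 6 of these in the fit with the spike-in term. With 3 arrays a group and centred values, neither absolute levels nor signal over background can be judged.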
